A study of Mus musculus with 2 samples.

Results

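The uroplakins are the membrane proteins of the urothelium, the stratified epithelium that lines the ureter and the bladder. Their genes were picked on the arrays by name, as every biological probe annotated in the scanner files as Upk1a, Upk1b, Upk2, Upk3a or Upk3b. Each of the 5 genes had 1 probe, so that 5 of 39429 probes, and 5 of 29875 genes by name, were members. All 5 probes were well above background in control RNA on both arrays and were therefore tested.

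UPK1A and UPK1B are tetraspanins, proteins that cross the membrane repeatedly and pair with a partner. UPK1A pairs with UPK2, and UPK1B pairs with UPK3A or UPK3B, each partner being a single-span protein that leaves the endoplasmic reticulum only as part of its pair. The pairs assemble into the stiff plaques on the apical face of superficial (S) cells, where they contribute to the permeability barrier against urine. Uroplakin expression rises as the ureteric epithelium stratifies, and Upk1b and Upk3b are also known from the mesothelium that covers abdominal organs.

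The RNA came from whole ureters taken at E12.5 from wildtype embryos of the NMRI mouse strain, a stage at which the ureteric epithelium is still a simple layer. Pools of these ureters had been cultured as explants for 18 h without fetal calf serum, with 10 µM BIO or with DMSO alone at 2 parts per 1000. BIO (6-bromoindirubin-3-oxime) inhibits the kinase GSK3 and thereby activates canonical WNT signaling, and the comparison asked how the ureter responds to it. It was made within each of 2 arrays that held BIO RNA in one channel and control RNA in the other, with the dyes exchanged on array 2. Both arms share strain, stage, culture time and solvent, and neither carries an engineered allele. Epithelium, mesenchyme and vessels were not separated, so fewer cells of a type and less RNA per cell cannot be told apart.

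Of the biological spots, 70.1% to 80.9% were well above background in a channel, and 0 were saturated. The pan-epithelial gene Epcam had processed signals of 4219 and 3974 in control and 4299 and 4155 in BIO RNA on arrays 1 and 2. The ureteric mesenchymal gene Tbx18 had 9371 and 10572 in control RNA. Both marks of the labelled tissue were therefore present. Of the listed WNT feedback and target genes, 6 of 6 were called higher (limma), with mean log2 ratios of 1.07 to 2.80. The share called higher over all genes tested was 9.13%, and the list was chosen with earlier results of these data known.

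The uroplakin genes did not respond as 1 group. Upk3a and Upk1b fell strongly with BIO, Upk3b fell less and from a dim signal, and Upk1a and Upk2 did not pass the test. Thus 3 of 5 members were lower and 0 were higher at an adjusted p below 0.05 (limma). Of these 3, Upk1b and Upk3b passed the detection filter through control RNA only, and Upk3a was measured in both RNAs on both arrays. Over all 21574 genes tested, 14.8% were lower and 9.13% were higher. With the deposited score per probe, a signed fold change, 1 member was lower, Upk3a, and 6.11% of all genes were. The median log2 ratio of the 5 members was -0.67, and over all genes tested it was -0.01.

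**Figure D1:**
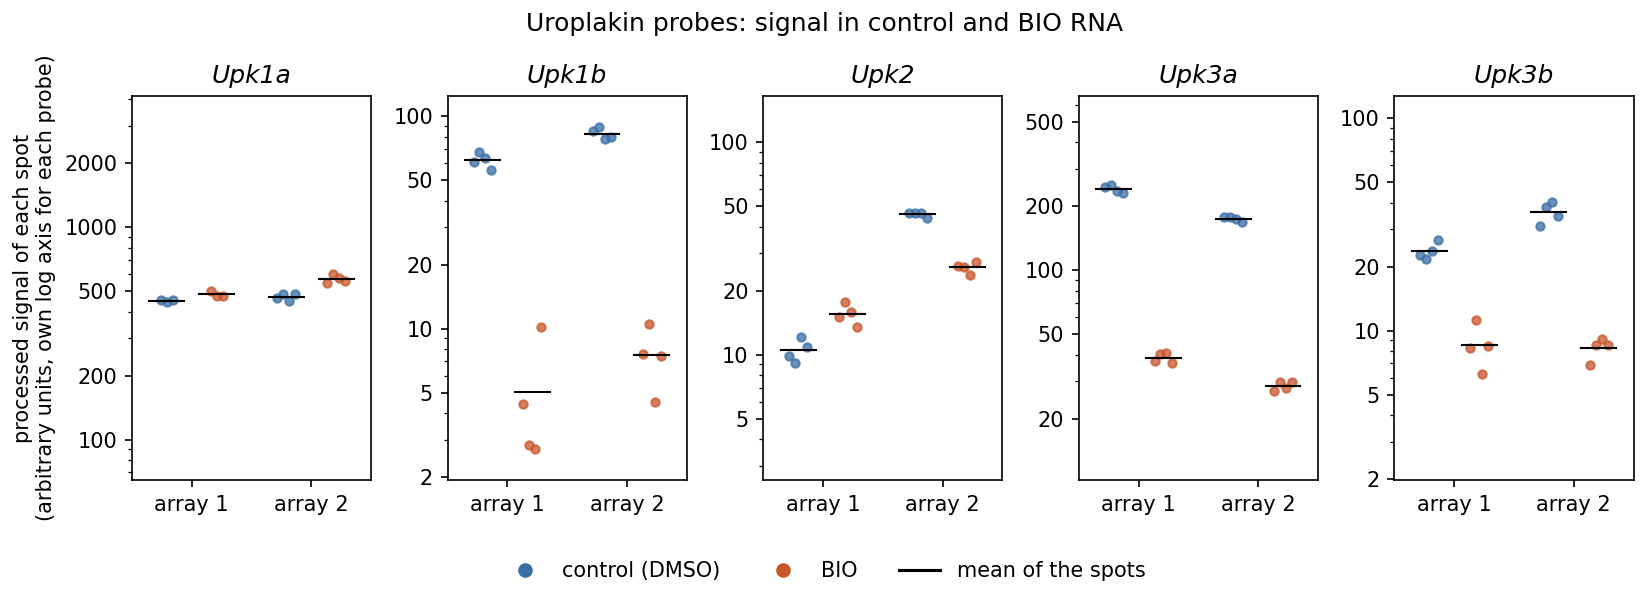
Processed signal of each retained spot (vertical, arbitrary units, log axis with its own range for each probe) of the 5 uroplakin probes in control (blue) and BIO RNA (orange) on arrays 1 and 2, with the mean of the spots as a black line. Control and BIO spots are far apart for Upk1b, Upk3a and Upk3b on both arrays, while those of Upk2 change order between the arrays.

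The first tetraspanin gene, Upk1a (NM_026815), is read by a probe at chr7:31388111-31388170 on the minus strand (mm9). Its processed signal was 450 in control and 483 in BIO RNA on array 1, and 468 and 569 on array 2. Its spots were well above background in every channel, and on array 2 each BIO spot lay above each control spot. The spots of a probe on an array repeat the same hybridisation and are not replicates, here and for the genes below. The log2 ratio of BIO over control was -0.033 on array 1, where 3 of the 4 spots were retained, and 0.25 on array 2. The mean of 0.11 ± 0.12 (SE, n = 2) gave an adjusted p of 0.563 (limma), with a 95% interval of -0.16 to 0.38. This SE, like those below, is the moderated one of limma and not the spread of the 2 arrays alone. The sign of the first array's ratio thus differs between processed signals and loess-normalized ratios. The interval holds changes in either direction and lies above the measured ratio of Upk1b.

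The other tetraspanin gene, Upk1b (NM_178924), is read at chr16:38773859-38773918 on the minus strand (mm9). Its control signal was 61.8 on array 1 and 82.7 on array 2, and its BIO signal was 5.03 and 7.51. The lowest control spot of each array (55.7 and 78.1) was far above the highest BIO spot (10.1 and 10.5). In BIO RNA 0 of 4 spots on array 1 and 1 of 4 spots on array 2 were well above background, against 4 of 4 in control RNA on both arrays. BIO RNA was not well above background on either array, so the fall is a lower bound, and Upk1b was at least 2.85-fold lower with BIO. The measured log2 ratios were -1.53 and -1.63. They averaged -1.58 ± 0.11 (SE, n = 2), and limma gave an adjusted p of 8.5e-05. With the deposited score the adjusted p was 0.0808 (limma) and the direction was kept. Since the fall is known only as a lower bound, the place of Upk1b among all genes is not given.

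Upk2 (NM_009476) encodes the partner of UPK1A, and its probe lies at chr9:44260822-44260881 on the minus strand (mm9). Its signal was 10.5 in control and 15.5 in BIO RNA on array 1, and 45.9 and 25.7 on array 2. On both arrays the channel read in red, BIO on array 1 and control on array 2, gave the higher signal, and the control signal was 4.37 times as high on array 2 as on array 1. The log2 ratio was 0.19 on array 1 and -0.47 on array 2, and the spots of the arrays did not overlap, with 0.10 to 0.34 on one and -0.59 to -0.36 on the other. The mean of -0.14 ± 0.16 (SE, n = 2) had an adjusted p of 0.586 (limma) and a 95% interval of -0.50 to 0.23. No direction can be given for Upk2, since its arrays differ in sign.

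Upk3a (NM_023478), which encodes a partner of UPK1B, fell from a signal that was well above background in both RNAs. Its probe is shown because it is the 1 probe of the members called lower that measured both RNAs on both arrays, and because its 60 bases cover 902 bases of the genome, chr15:84851819-84852720 on the plus strand (mm9). It therefore crosses a splice junction within the coding sequence and reads spliced RNA, 5′ to 3′:
Upk3a probe: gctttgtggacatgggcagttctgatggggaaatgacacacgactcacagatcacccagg

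The Upk3a signal was 241 in control and 38.8 in BIO RNA on array 1, and 175 and 28.7 on array 2. Every spot was well above background in both channels, and the control and BIO spots did not overlap on either array. The ratio of processed signals was 6.21-fold lower on array 1 and 6.10-fold lower on array 2. After background correction with an offset, which pulls dim ratios toward 0, the log2 ratios were -2.13 and -1.82. Their mean was -1.98 ± 0.12 (SE, n = 2), a 3.93-fold lower level, with an adjusted p of 5.2e-05 (limma). Only 82 of the genes tested, or 0.380%, had a lower mean log2 ratio.

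Upk3b (NM_175309) encodes the alternative partner of UPK1B and is read at chr5:136520522-136520581 on the plus strand (mm9). Its signal was 23.6 in control and 8.52 in BIO RNA on array 1, and 35.95 and 8.28 on array 2. The control and BIO spots did not overlap on either array. Spots of Upk2 were also apart on both arrays, though in opposite directions, so such a gap does not speak for agreement between arrays. In BIO RNA 0 of 4 spots were well above background on array 1 and 3 of 4 on array 2, so that 1 of the 2 arrays measured the BIO level. The log2 ratios were -0.54 and -0.80. They averaged -0.67 ± 0.12 (SE, n = 2), and limma gave an adjusted p of 0.00489. A lower mean was found for 6.09% of the genes tested, a place that rests in part on array 1, where BIO RNA was not well above background. The call was lost with the processed signals raised to a floor of 15, at an adjusted p of 0.0732 (limma). That floor lay above the BIO signal of Upk3b on both arrays. The call was also lost with the score, at an adjusted p of 0.347 (limma), and the direction was kept in both.

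The related gene Upk3bl, which lies beside Upk3b on chromosome 5 and encodes an uroplakin-like protein, was read by a pair of overlapping probes. Its representing probe had 197 and 221 in control and 191 and 219 in BIO RNA. The mean log2 ratios of the probes were -0.10 and -0.18, with adjusted p-values of 0.559 and 0.271 (limma). Neither passed the test.

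**Figure D2:**
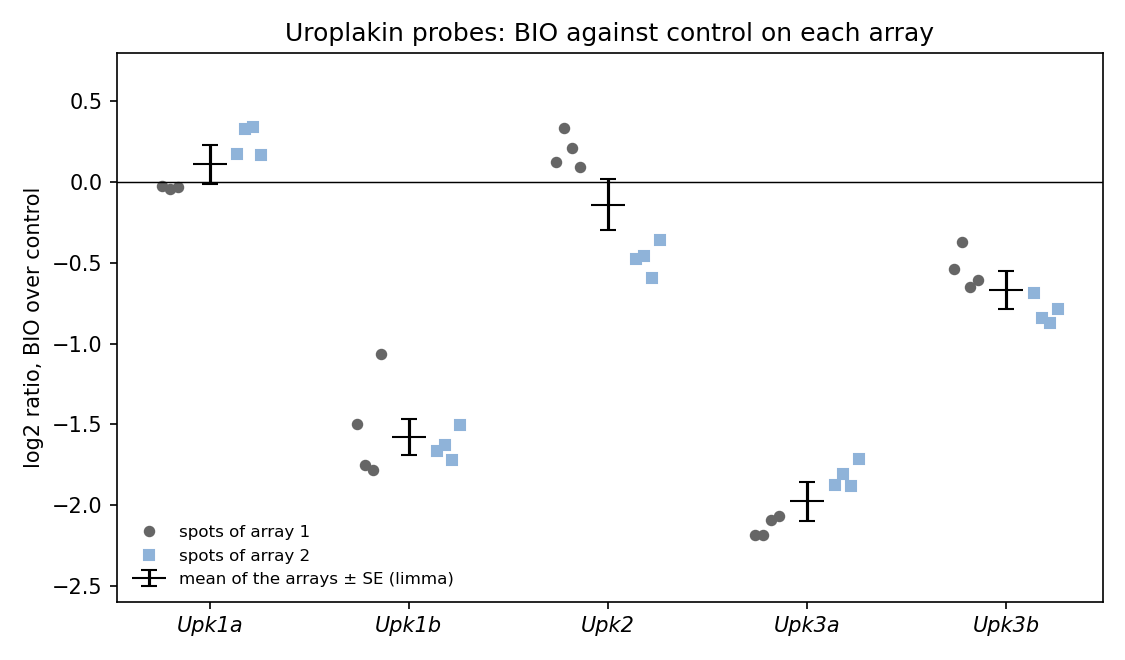
Log2 ratio of BIO over control (vertical) for each retained spot of the 5 uroplakin probes on array 1 (circles) and array 2 (squares), with the mean of the arrays ± SE from limma in black. Upk1b, Upk3a and Upk3b lie below 0 on both arrays, Upk1a lies near 0, and the arrays of Upk2 lie on opposite sides of 0.

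Set out by the pairs that the proteins form, UPK1B and both of its partners, UPK3A and UPK3B, were encoded by genes that fell, while neither UPK1A nor its partner UPK2 was encoded by a gene that passed the test. The difference between these pairs was not tested. Upk1b and Upk3b passed the detection filter through control RNA only and lost the call with the deposited score, while Upk3a kept it. Upk2 was dim and changed sign between the arrays, so the contrast of the pairs rests mainly on Upk3a. By the study's rule for its other arrays, which asks for at least a 2-fold ratio in the same direction and a signal of at least 100 on both arrays, Upk3a passed as lower and the other 4 members did not. That rule was passed as lower by 1.47% of 29863 genes. Upk1b failed it on brightness, with a brighter channel below 100 on both arrays.

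**Figure D3:**
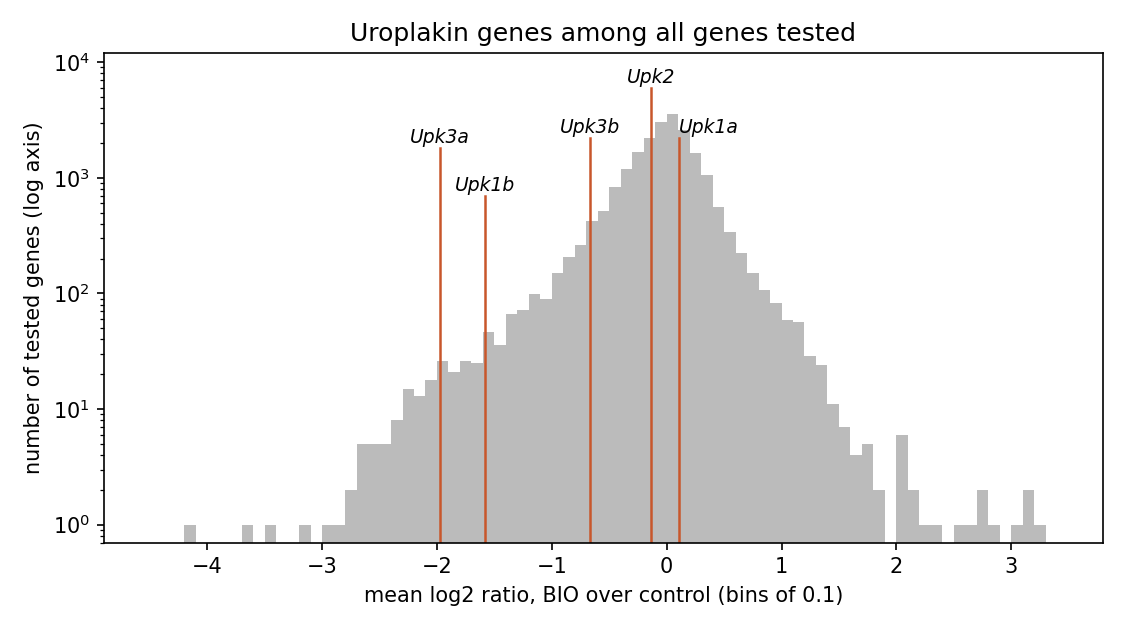
Number of the 21574 tested genes (vertical, log axis) by mean log2 ratio of BIO over control (horizontal, bins of 0.1), with the uroplakin genes as orange lines. Upk3a at -1.98 and Upk1b at a measured -1.58 lie in the thin lower tail, and the fall of Upk1b is known only as a lower bound. Upk3b at -0.67 lies in the upper part of that tail, and Upk2 and Upk1a lie in the centre.

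For 3 of the 5 genes, Upk1a, Upk3a and Upk3b, RefSeq promoter sequence of build GRCm38.p6 was used, and Upk1b and Upk2 had no entry. The 250 bases before the start are shown to set side by side 3 genes with unlike results. Upk3a fell on both arrays from a signal well above background in both RNAs, Upk3b fell from a dimmer signal, and Upk1a did not pass. The sequences were searched on both strands for short motifs. The first, CTTTGAA, is a common form of the motif bound by TCF/LEF factors of WNT signaling. A further form of it ends in another base and reads CTTTGAT. The FOX motif searched for was TGTTTAC, and the motif for GATA factors was AGATAA. Matches are in capitals, and each sequence runs 5′ to 3′ along the gene:
Upk3a, chr15:85016891-85017140, plus strand: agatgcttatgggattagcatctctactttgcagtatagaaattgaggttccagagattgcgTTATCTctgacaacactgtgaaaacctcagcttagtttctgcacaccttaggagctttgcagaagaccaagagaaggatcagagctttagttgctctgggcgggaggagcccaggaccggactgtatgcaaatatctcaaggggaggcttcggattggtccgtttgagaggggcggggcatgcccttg
Upk3b, chr5:136038246-136038495, plus strand: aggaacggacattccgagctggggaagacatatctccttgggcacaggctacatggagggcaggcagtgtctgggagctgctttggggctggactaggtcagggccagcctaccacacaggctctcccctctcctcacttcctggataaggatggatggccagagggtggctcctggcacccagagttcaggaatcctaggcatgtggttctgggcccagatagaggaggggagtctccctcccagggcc
Upk1a, chr7:30612735-30612984, minus strand: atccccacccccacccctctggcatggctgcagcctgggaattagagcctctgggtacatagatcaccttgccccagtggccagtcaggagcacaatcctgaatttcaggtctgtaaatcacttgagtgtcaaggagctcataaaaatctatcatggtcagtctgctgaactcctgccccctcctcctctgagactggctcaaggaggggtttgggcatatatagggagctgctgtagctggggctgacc

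The 1 match was that of the GATA motif on the opposite strand of Upk3a, beginning 188 bases before the start. Of 32851 windows of this length, 9.99% held the GATA motif, 4.46% the first and 3.21% the further TCF/LEF form, and 3.17% the FOX motif. A match describes these letters only. The G and C content was 49.6% for Upk3a, 60.8% for Upk3b and 54.4% for Upk1a.

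Genes that carry uroplakins to the apical membrane were split. Of 7 tested, 3 were lower, 1 was higher and 3 did not pass, with a median log2 ratio of -0.04. Mal, a raft protein of apical transport, fell by 1.40 on the log2 scale (adjusted p = 0.000159, limma). Rab27b, a GTPase of the vesicles that bring uroplakins to the surface, fell by 1.15, and Rab11a, a recycling GTPase, fell by 0.53. Sytl2, which encodes a RAB27 effector, rose by 0.65. Snx31, a sorting protein for uroplakin turnover, was not well above background in either channel and was not tested.

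Among the markers of urothelial layers, 2 of 6 tested were lower and 0 were higher, with a median of -0.16. S100a1, a marker of S cells, had 444 and 512 in control and 245 and 333 in BIO RNA, and fell by 0.76 (adjusted p = 0.00265, limma). Krt13, a keratin of stratified epithelia, fell by 0.60. Krt20, a late marker of S cells, had a log2 ratio of -0.36 (adjusted p = 0.0704, limma) from signals of 23.6 and 23.3 in control RNA. In BIO RNA on array 1 the Krt20 probe was not well above background. Krt5, the keratin of basal cells, had 0.09 (adjusted p = 0.597, limma), also from signals of 20.8 and 25.7. The late layer markers Krt20 and Krt5 thus gave dim signals in both RNAs.

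Of 10 transcription factors of the urothelium, 4 were lower and 1 was higher, with a median of -0.18. Foxq1 fell by 3.46 on the log2 scale. Foxa1, a regulator of S-cell differentiation, fell by 2.17 (adjusted p = 0.000211, limma), and Pparg, a nuclear receptor with a role in the same cells, fell by 1.54 (adjusted p = 0.000333, limma). Grhl3, a factor of terminal differentiation in S cells, rose by 1.05. Trp63, the factor of stratification and of basal cells, had a log2 ratio of -0.05 on its brightest probe, whose adjusted p was 0.799 (limma). Of its 3 dimmer probes, called lower, 2 had -0.79 and -1.98, which disagrees with the brightest probe. The third was not well above background in BIO RNA on either array, and by it Trp63 was at least 1.22-fold lower.

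**Figure D4:**
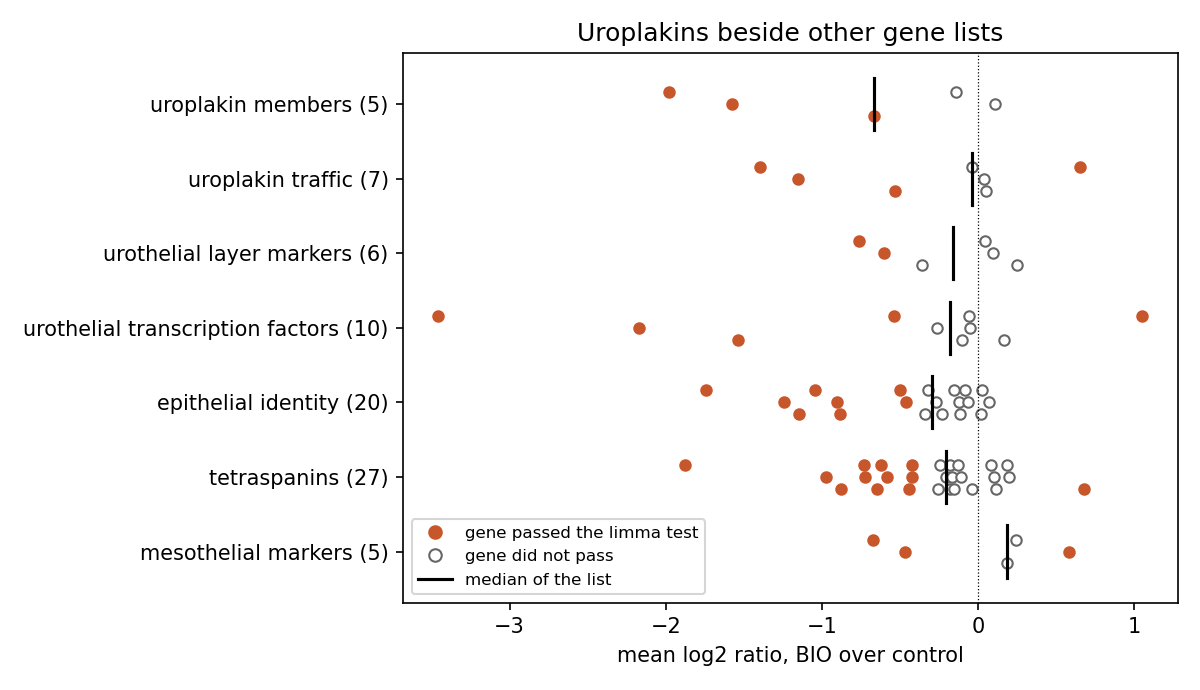
Mean log2 ratio of BIO over control (horizontal) of each tested gene of 7 lists, with the number tested in brackets, filled where the gene passed the limma test and open where it did not, and the median of each list as a black line. The uroplakin median of -0.67, which is the value of Upk3b, lies below that of the other lists drawn, which range from -0.30 to 0.19. Of the lists not drawn, endothelial markers had a median of -2.13, ureteric mesenchyme -0.56, and ureteric bud and collecting duct -0.45. Upk3a lies below all 20 epithelial identity genes.

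As a frame for the fall of Upk3a and Upk1b, the general epithelial genes were compared. Of 20 tested, 8 were lower, 0 were higher and 12 did not pass, with a median of -0.30. Krt7 fell by 1.74, Krt19 fell by 1.24, and the splicing factor gene Esrp2 fell by 1.15. Cdh1, which encodes E-cadherin, fell by 1.04, and Krt8 fell by 0.91. Epcam stood at 0.02 (adjusted p = 0.907, limma). The summed processed signal of the list was 118747 and 121405 in control and 78728 and 84252 in BIO RNA. Upk3a had a lower mean log2 ratio than each of the 20 genes. The log2 ratio of Upk3a minus the epithelial median was -1.95 on array 1 and -1.38 on array 2. The part of the epithelial genes in the fall of the uroplakins was not tested.

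UPK1A and UPK1B belong to the tetraspanins, so the other genes of this family were described too. Of 27 tested, 11 were lower and 1 was higher, with a median of -0.20 and a range of -1.88 to 0.68. Tspan8 fell by 1.88, Tspan17 fell by 0.98, Tspan18 fell by 0.88 and Cd9 fell by 0.73, and Tspan12, the 1 gene that was higher and named after its value was seen, rose by 0.68.

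Since Upk1b and Upk3b are also genes of the mesothelium, its markers stand beside them. Of 5 tested, 2 were lower and 1 was higher, with a median of 0.19. Gpm6a fell by 0.67 and Msln, which encodes mesothelin, fell by 0.47 (adjusted p = 0.0264, limma). Wt1, which kidney mesenchyme also expresses, rose by 0.58 (adjusted p = 0.0471, limma), with 0.18 on array 1 and 0.98 on array 2. The summed processed signal of the list was 3052 and 3128 in control and 3179 and 4924 in BIO RNA. Wt1 made up most of it, and without Wt1, as chosen after seeing the data, the other 4 markers summed to 895 and 1072 in control and 620 and 893 in BIO RNA. Msln was present, with 486 and 536 in control and 331 and 444 in BIO RNA. The part of mesothelial cells in the fall of Upk1b and Upk3b was not tested.

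In the genes of the ureteric bud and collecting duct, 5 of 9 tested were lower and 0 were higher, with a median of -0.45. Ret, a receptor of the bud tip, fell by 1.46, and Aqp2, a water channel of the collecting duct, had 0.03 (adjusted p = 0.873, limma) from signals of 35.5 and 51.9 in control RNA. Of the ureteric mesenchyme genes 5 of 7 were lower, with a median of -0.56, and Pdgfrb fell by 2.17. All 5 endothelial markers were lower, with a median of -2.13, and Kdr fell by 2.63. Falls were therefore present in lists of other cell types of the ureter as well, and none of the lists was tested as a set.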

How the data were processed

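Total RNA of BIO-treated and control explants was labeled with 2 dyes and hybridised together on Agilent 2-color arrays, and the dyes were exchanged on array 2. The labels number both RNAs of an array and the methods describe separate pools, so each array was 1 replicate (n = 2). Per the file headers, the authors quantified spots with Feature Extraction 10.7.3.1. The deposited mean and background intensities were not normalized by the authors, whereas the deposited processed signal intensities had been background-subtracted and dye-normalized. The authors also deposited a score per probe and array. Its making is not stated, but it follows a signed fold change of the processed signals, BIO over control, with an unknown centring and a median of 1 on both arrays.

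The fit was made in R 4.3.3 with limma 3.58.1. The local background was taken into account by normexp (offset 50), followed by loess within each array, with control spots and outlier spots at weight 0. Outlier spots (3.49% and 3.16% of biological spots) were left out, and the rest of the 4 spots per probe gave its mean. Detection in a channel required over a 0.5 share of retained spots to be well above background. A probe was tested when that held for control or for BIO RNA on both arrays, which left 28824 probes. The ratio of array 2 was turned, and eBayes after lmFit gave two-sided p-values for a ratio of 0, adjusted by Benjamini-Hochberg over all tested probes at 0.05. A gene was represented by its brightest tested probe. Standard errors are those of eBayes, in which the variance of each probe is drawn toward a value shared by all tested probes. Only 2 arrays limit the precision, with a median standard error of 0.111 (log2), and dye and array cannot be told apart in a single array.

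For Upk1b, the bound set the control mean against, for each array, the higher of its own BIO value and the lowest value among probes well above background, after loess and Aquantile. For the fold rule, processed signals were raised to a floor of 15 and centred on each array's median. The refit on the processed signals used the same floor without that centring. Probes were named through RefSeq genes of GRCm38.p6 (names and promoters only), and 28328 matched by accession, 3400 by symbol and 243 by synonym, while 7458 kept the name in the file. Probe positions are mm9, per the file headers.

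Alternatives were an offset of 16, the processed signals, median centring in place of loess, the score, no filter, the mean of all probes of a gene, outlier spots kept, and each array alone. The fit was tested on simulated data. The members and the lists were chosen with earlier results of these data known. All 5 members are described. Of each other list the called genes with the largest absolute mean log2 ratios were named (up to 4), besides Cdh1, Epcam, Krt8, Trp63, Krt5, S100a1, Krt20, Wt1, Msln and Aqp2. Tspan12 was named in addition, after its value was seen. No likeness of pattern was computed with a single contrast. In its place the share of genes with a more extreme ratio is given for Upk3a and Upk3b. It is left out for Upk1b, whose fall is only bounded, and for Upk1a and Upk2, which did not pass the test.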

Additional observations from a re-analysis of the deposited data

How the results depend on the processing

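Upk3a kept its direction and call in the 7 refits on both arrays, with log2 ratios of -2.62 to -1.98 and adjusted p-values up to 0.0354 (limma). With 1 array left out, where no test was made, it had -2.13 to -1.82. Upk1b ranged from -2.25 to -1.58, and from -1.63 to -1.53 with 1 array left out. With the processed signals, raised to a floor of 15, 2 members were lower, and Upk3b had -0.96 (adjusted p = 0.0732, limma). The floor lay above the BIO signals of Upk1b and Upk3b on both arrays. Their ratios in that refit, -2.25 for Upk1b, therefore depend on the floor. With the score, 1 member was lower, Upk1b had -1.86 (adjusted p = 0.0808) and Upk3b -0.51 (adjusted p = 0.347). With 1 array left out, Upk3b ranged from -0.80 to -0.54, Upk1a from -0.033 to 0.25 and Upk2 from -0.47 to 0.19. Upk1a, 0.11 as reported and 0.11 to 0.20 in the other refits, had a log2 ratio of -0.021 with median centring in place of loess. On array 1 alone, its log2 ratio was -0.033, and that of Upk2 was 0.19. The summed mesothelial signal had a log2 ratio of 0.36, and of -0.40 without Wt1, chosen after seeing the data. The causes were not tested. The count of genes called over the array went from 5154 to 1923 with processed signals, 2766 with median centring and 3248 with the score. Lower genes made up 40.6% of the calls with the score and 61.8% with the background-corrected intensities. The fold rule took 1 member under a minimum of 1.5-fold or 3-fold and on each array alone.

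No further pairing was added, because each array itself holds a BIO and a control RNA, and the fit used their ratio as the pair. Dim signals limit Upk1b in BIO RNA, and Upk2 and Upk3b in both RNAs, where the offset of 16 moved the log2 ratio of Upk1b to -2.12 and that of Upk3b to -0.97.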
